A study of Mus musculus with 6 samples.

Results

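The enzymes of glycolysis, the pentose phosphate pathway and glycogen metabolism were examined as a set of 34 genes, found by an exact match of gene names among the 24391 genes of the deposited count files. All 34 names were found, pyruvate kinase as Pkm, and all 34 passed the filter on low counts that left 14579 genes for testing. Lactate dehydrogenase and lactate transport genes were not included. Glycolysis splits glucose into pyruvate and yields ATP, the pentose phosphate pathway branches from glucose 6-phosphate to make NADPH and ribose phosphate, and glycogen is the branched glucose polymer in which cells store sugar. Many steps are catalysed by isozymes encoded by separate genes, which differ in tissue distribution and regulation. Proliferating tumour cells commonly take up much glucose and convert it to lactate even in the presence of oxygen, and the transcription factors HIF-1 and MYC are known to act on many of these genes.

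The cells came from tumours of the iBIP mouse, a melanoma model in which Cre recombinase fused to a tamoxifen-responsive receptor is driven by the Tyr promoter (Tyr-CreERT2), so that recombination is directed to melanocytes. The other iBIP alleles are Rosa26-rtta and a doxycycline-dependent TetO-BRAFV600E transgene together with floxed PTENL/L and INK/ARFL/L, on a mixed background of FVB and B6. KMT2D KO cells were from iBIP;KMT2DL/L mice and KMT2D WT cells from iBIP;KMT2D+/+ mice, with 3 libraries in each group. Kmt2d encodes a histone methyltransferase that marks enhancers. Mice of both genotypes received doxycycline, and 4-OHT, the active form of tamoxifen, was put on their ears, where the tumours arose. The cells of both groups were kept in high-glucose DMEM with GlutaMAX. The labels give no age, and leave it unsaid if replicates were separate cultures, tumours or mice. All p-values therefore rest on a spread between libraries that may be technical only, and an effect of Kmt2d cannot be told apart from a difference between the lines; the 4 tested genes of chromosome Y, for example, had a median log2 fold change of -7.58. In the labels, the RNA extraction is described for cerebellar tissues, whereas the cells are named everywhere else as tumour cells.

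Total counts per library were 55594979 to 79718782 in KMT2D KO and 43168605 to 59360068 in KMT2D WT. Counts of Kmt2d itself were 72.9, 69.3 and 79.8 CPM (counts relative to the library's total, after TMM scaling) in KMT2D KO replicates 1, 2 and 3, against 79.6, 87.6 and 101 CPM in KMT2D WT. Its log2 fold change was -0.27 (adjusted p = 0.0075, edgeR), and KMT2D KO replicate 3 stood above KMT2D WT replicate 1; whole-gene counts do not show whether the floxed part was deleted. Of 8 melanocyte markers, Sox10, Tyr, Tyrp1, Dct, Mlana and Slc45a2 were under 1 CPM in both groups, so that most defining markers of the labelled lineage were nearly absent, and the summed level of the 8 was 50.4 to 59.1 CPM in KMT2D KO and 15.9 to 17.3 CPM in KMT2D WT, with Mitf alone at 53.2 CPM in KMT2D KO and 15.4 CPM in KMT2D WT. The summed level of 6 fibroblast markers was 21200 to 22200 CPM in KMT2D KO and 5490 to 5690 CPM in KMT2D WT. Of these, 5 were called higher and 1, Lum, lower (35.4% and 35.5% of all tested genes). Col1a1, Col1a2 and Col3a1 made up most of the sum, with Col1a2 at 9383 CPM in KMT2D KO and 2807 CPM in KMT2D WT. Dcn averaged 137.5 CPM in KMT2D KO and 117.8 CPM in KMT2D WT, and Lum 0.527 CPM in KMT2D KO and 1.30 CPM in KMT2D WT. Summed cerebellar markers (8, of which 6 were under 1 CPM in both groups) reached 3.58 to 3.67 CPM in KMT2D KO and 7.01 to 8.52 CPM in KMT2D WT, of which Slc1a2 was lower (0.884 CPM in KMT2D KO and 6.47 CPM in KMT2D WT) and Mbp higher (2.54 CPM in KMT2D KO and 0.901 CPM in KMT2D WT). Of the immune markers, Cd68 averaged 2.21 CPM in KMT2D KO and 9.03 CPM in KMT2D WT, Csf1r 0.957 CPM in KMT2D KO and 2.56 CPM in KMT2D WT, and Ptprc and Cd3e were under 1 CPM in both groups. The sum of 4 keratinocyte markers was 13.5 to 15.2 CPM in KMT2D KO and 4.98 to 7.24 CPM in KMT2D WT, with Trp63 at 10.2 CPM in KMT2D KO and 0.783 CPM in KMT2D WT and Krt5, Krt14 and Krt10 not called. The sum of 3 endothelial markers, all under 1 CPM, was 0.309 to 0.456 CPM in KMT2D KO and 0.849 to 1.00 CPM in KMT2D WT. The part of these marker differences in the results below was not tested. In bulk RNA, fewer cells of a type and less RNA per cell cannot be told apart.

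Most of the sugar-metabolism genes were higher in KMT2D KO cells. With edgeR's quasi-likelihood test and a Benjamini-Hochberg adjusted p under 0.05, 22 of the 34 genes (64.7%) were called higher, where 35.4% of all tested genes were called higher. The test called 7 (20.6%) lower, where 35.5% of all tested genes were lower, and it did not call Slc2a3, Pfkp, Pgd, Rpia and Rpe. A log2 fold change above 1 was reached by 13 of the genes called higher (13.9% of all tested genes), and one below -1 by 2 of those called lower, Eno3 and Gbe1 (12.9% of all tested genes). In 23 of the 34 genes every KMT2D KO library stood above every KMT2D WT library (37.2% of all tested genes), in 7 every KMT2D KO library stood below (37.1% of all tested genes), and in 4 the groups overlapped. The median log2 fold change of the 34 genes was 0.48, beside 0.004 over all tested genes. The genes called higher include Eno1, whose counts do not give its level. They also include Gapdh, Pgk1 and Pgam1, whose levels are uncertain because of copies. The smaller count and median without these genes are given in the last section. Together the 34 genes took 1.28%, 1.31% and 1.27% of all counts in the 3 KMT2D KO libraries, against 0.994%, 1.02% and 0.958% in the KMT2D WT libraries.

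**Figure D1:**
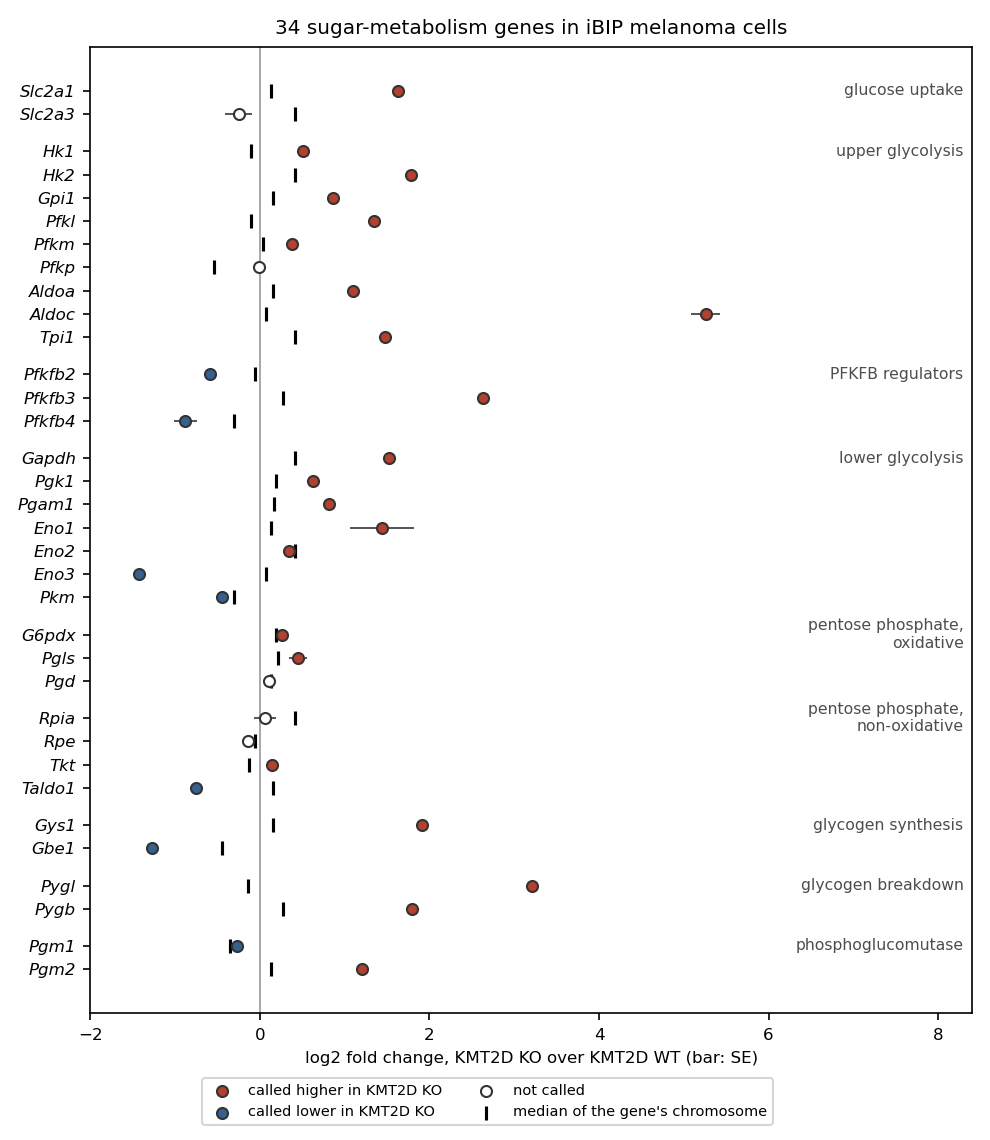
Log2 fold change of each of the 34 genes, KMT2D KO over KMT2D WT, with its standard error (bar), grouped by role from top to bottom; red, blue and open points are genes called higher, called lower and not called. Short vertical marks show the median log2 fold change of all tested genes on the same chromosome. Aldoc lies farthest to the right at 5.26 and Eno3 farthest to the left at -1.42.

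Fold changes in these cells differed between whole chromosomes, and 6 of the genes (Slc2a3, Hk2, Tpi1, Gapdh, Eno2 and Rpia) are carried by chromosome 6. Its 721 tested genes had a median log2 fold change of 0.42. The median was -0.54 on chromosome 13 (Pfkp), -0.44 on chromosome 16 (Gbe1), -0.36 on chromosome 5 (Pgm1) and -0.30 on chromosome 9 (Pkm and Pfkfb4). Relative to the median of their own chromosomes, the 34 genes had a median of 0.49. With the fold changes centred in this way, 20 of the genes were called higher and 8 lower.

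Promoter sequence is shown for the members with the largest rises (Aldoc, Pygl and Pfkfb3) and the largest falls (Eno3 and Gbe1), since HIF-1 is known to bind the short core of the hypoxia response element near the start sites of many glycolytic genes. Each window is from RefSeq on GRCm38.p6, runs 5′ to 3′ on the gene's strand, covers 250 bases before to 50 bases after an annotated start, and has each match to the core in capitals (ACGTG or GCGTG, or CACGT or CACGC where it lies on the other strand). The windows lie at chr11:78322823-78323122 (+) for Aldoc, chr12:70227634-70227933 (-) for Pygl, chr2:11553880-11554179 (-) for the first of the Pfkfb3 starts, chr11:70656926-70657225 (+) for Eno3 and chr16:70313699-70313998 (+) for Gbe1.
Aldoc: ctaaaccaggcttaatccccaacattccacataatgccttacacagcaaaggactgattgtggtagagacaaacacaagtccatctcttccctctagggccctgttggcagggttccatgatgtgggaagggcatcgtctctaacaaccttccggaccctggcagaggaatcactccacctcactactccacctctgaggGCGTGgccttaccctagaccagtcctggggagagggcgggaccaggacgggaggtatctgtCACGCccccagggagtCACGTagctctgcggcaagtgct
Pygl: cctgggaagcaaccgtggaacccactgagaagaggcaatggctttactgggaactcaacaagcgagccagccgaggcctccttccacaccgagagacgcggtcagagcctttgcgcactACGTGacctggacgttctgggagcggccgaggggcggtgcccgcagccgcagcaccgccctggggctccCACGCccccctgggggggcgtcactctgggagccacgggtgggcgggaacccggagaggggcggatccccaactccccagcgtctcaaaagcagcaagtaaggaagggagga
Pfkfb3: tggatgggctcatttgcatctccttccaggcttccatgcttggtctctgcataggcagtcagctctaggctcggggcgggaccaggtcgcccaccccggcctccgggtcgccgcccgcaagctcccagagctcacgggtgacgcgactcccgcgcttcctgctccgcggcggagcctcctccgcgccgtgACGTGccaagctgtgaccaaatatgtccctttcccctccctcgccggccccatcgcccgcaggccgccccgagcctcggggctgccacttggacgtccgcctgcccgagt
Eno3: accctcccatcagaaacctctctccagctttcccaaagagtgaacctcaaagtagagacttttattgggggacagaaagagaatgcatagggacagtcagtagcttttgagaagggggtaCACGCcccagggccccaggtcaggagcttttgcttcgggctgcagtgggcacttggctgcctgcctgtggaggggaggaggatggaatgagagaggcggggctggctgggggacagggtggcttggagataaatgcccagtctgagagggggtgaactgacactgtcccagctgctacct
Gbe1: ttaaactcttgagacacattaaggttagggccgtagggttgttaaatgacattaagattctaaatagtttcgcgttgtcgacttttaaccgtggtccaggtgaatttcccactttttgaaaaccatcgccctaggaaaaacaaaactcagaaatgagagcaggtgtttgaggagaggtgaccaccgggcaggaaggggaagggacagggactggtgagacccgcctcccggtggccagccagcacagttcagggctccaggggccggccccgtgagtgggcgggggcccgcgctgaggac

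The printed Aldoc window held 3 matches, the Pygl window 2, and the Pfkfb3 and Eno3 windows 1 each, while the Gbe1 window held none. A further Aldoc start, not printed, had 1 match, and a further Pfkfb3 start, not printed, had 4 matches, of which 2 lie in 1 CACGTG. Of the 34 genes, 33 were matched to the promoter table, all but Slc2a3. The core was present on either strand in at least 1 window of 27 of the 33 genes (81.8%), beside 46.7% of all 27025 genes of the table. By single windows of this length, it was in 76.6% of the 47 member windows and 43.8% of all 32851 windows. The E-box CACGTG, which MYC and the carbohydrate-responsive factor ChREBP can bind and which itself contains ACGTG, was in 3 of the 33 genes (9.09%) and in 8.09% of all genes. The GC box GGGCGG was in 27 of the 33 genes (81.8%) and in 38.2% of all genes. All genes here means those of the promoter table, which was not limited to genes that passed the low-count filter, as the 33 did. Among the matched genes, the hypoxia core was in 18 of the 22 called higher, 6 of the 7 called lower and 3 of the 4 not called. A match is a description of the letters in the window and does not show binding.

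Glucose enters most cells through the GLUT transporters, of which Slc2a1 encodes GLUT1, the basal transporter, and Slc2a3 encodes GLUT3, the high-affinity neuronal form. Slc2a1 (chr4:118781350-118809934, + strand, in the mm9 build of the files) was at 324, 319 and 341 CPM in KMT2D KO, against 104, 108 and 106 CPM in KMT2D WT. The groups were far apart and each was tight, and the gene rose 3.10-fold (log2 fold change 1.63 ± 0.05 SE, adjusted p = 6.8e-13, edgeR). Slc2a3 was at 3.81, 4.26 and 3.12 CPM in KMT2D KO and 4.60, 4.50 and 4.22 CPM in KMT2D WT. Its groups overlapped, and it was not called (log2 fold change -0.25, adjusted p = 0.17). Against the median of chromosome 6 it was called lower (-0.67, adjusted p = 0.0018). Within the class 1 transporters, compared per kilobase of gene length, Slc2a1 made up 98.7% ± 0.13 in KMT2D KO and 97.2% ± 0.10 in KMT2D WT (SD, n = 3 each).

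Hexokinases trap glucose in the cell as glucose 6-phosphate. Hk2, the insulin- and hypoxia-responsive isozyme that is abundant in many tumours, was at 268, 261 and 277 CPM in KMT2D KO, against 77.7, 76.9 and 79.3 CPM in KMT2D WT. All KMT2D KO libraries were above all KMT2D WT libraries, with a log2 fold change of 1.79 ± 0.05 (adjusted p = 2.5e-13). Hk1, the housekeeping isozyme, was at 394, 384 and 409 CPM in KMT2D KO and 274, 268 and 290 CPM in KMT2D WT. It too rose without overlap, by the smaller log2 fold change of 0.51 ± 0.05 (adjusted p = 4.4e-07). Per gene length, Hk2 made up 35.6% ± 0.04 of hexokinase in KMT2D KO and 18.7% ± 0.36 in KMT2D WT, and Hk1 nearly all of the rest in both.

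Gpi1, glucose 6-phosphate isomerase, rose with a log2 fold change of 0.86, to 1244 ± 19.7 CPM in KMT2D KO, against 685 ± 24.7 CPM in KMT2D WT. Phosphofructokinase, the main control point of glycolysis, is encoded by 3 genes, and they did not move alike. The liver-type gene Pfkl was at 288, 298 and 312 CPM in KMT2D KO, against 124, 119 and 109 CPM in KMT2D WT. It rose without overlap (log2 fold change 1.35 ± 0.06, adjusted p = 3.6e-11). The muscle-type gene Pfkm was at 110, 116 and 117 CPM in KMT2D KO and 92.5, 90.6 and 81.5 CPM in KMT2D WT, a smaller rise (0.38 ± 0.06). The platelet-type gene Pfkp was at 122, 125 and 130 CPM in KMT2D KO and 137, 127 and 116 CPM in KMT2D WT. These groups overlapped fully, and Pfkp was not called (-0.01, adjusted p = 0.86), although against the low median of chromosome 13 its difference was 0.53 and was called (adjusted p = 3.2e-06). Per gene length, Pfkl made up 54.4% ± 0.33 of phosphofructokinase in KMT2D KO and 34.8% ± 0.15 in KMT2D WT, and Pfkp 20.3% ± 0.15 in KMT2D KO and 33.3% ± 0.51 in KMT2D WT.

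Aldolase cleaves fructose 1,6-bisphosphate, and 2 of its genes are among the 34. Aldoa, the muscle and general form and the gene of the pair that supplied nearly all of their RNA here, was at 2033, 2078 and 2009 CPM in KMT2D KO, against 935, 1004 and 926 CPM in KMT2D WT, a rise of 2.14-fold. Aldoc, the brain form (chr11:78136575-78141280, + strand, mm9), was at 17.5, 17.5 and 18.4 CPM in KMT2D KO, against 0.513, 0.549 and 0.291 CPM in KMT2D WT. These values rest on 1343, 1076 and 980 counts in KMT2D KO and 30, 34 and 13 counts in KMT2D WT, where the gene was nearly silent. Its log2 fold change of 5.26 ± 0.17 was the largest of the 34 (adjusted p = 7.8e-13). Even so Aldoc made up only 0.552% ± 0.024 of aldolase RNA per gene length in KMT2D KO, and 0.0298% ± 0.0086 in KMT2D WT. Tpi1, which interconverts the triose phosphates that aldolase releases, rose 2.79-fold, to 1207 ± 38.3 CPM in KMT2D KO, against 433 ± 28.6 CPM in KMT2D WT.

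The PFKFB enzymes make and break fructose 2,6-bisphosphate, the strongest activator of phosphofructokinase, and their genes moved in opposite directions. Pfkfb3, whose product has a high ratio of kinase to phosphatase activity and is induced by hypoxia, was at 109, 106 and 111 CPM in KMT2D KO, against 18.5, 17.8 and 16.4 CPM in KMT2D WT. The groups were far apart, and the gene rose 6.19-fold (log2 fold change 2.63 ± 0.06, adjusted p = 3.6e-14). Pfkfb2, the heart form, was at 30.6, 30.2 and 32.5 CPM in KMT2D KO, against 48.9, 44.2 and 47.1 CPM in KMT2D WT. Pfkfb4, the testis form, was at 3.67, 3.84 and 4.57 CPM in KMT2D KO, against 7.27, 7.28 and 7.67 CPM in KMT2D WT. Both fell without overlap, with log2 fold changes of -0.59 ± 0.07 (adjusted p = 1.9e-06) and -0.88 ± 0.14 (adjusted p = 3.6e-05). The makeup of the family differed too. Per gene length Pfkfb3 made up 79.2% ± 0.071 of PFKFB in KMT2D KO and 29.6% ± 1.8 in KMT2D WT, and Pfkfb2 12.4% ± 0.24 in KMT2D KO and 43.3% ± 1.6 in KMT2D WT. The summed level of the family was 26.0 ± 0.625 RPKM (CPM per kilobase) in KMT2D KO and 11.2 ± 0.174 RPKM in KMT2D WT.

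**Figure D2:**
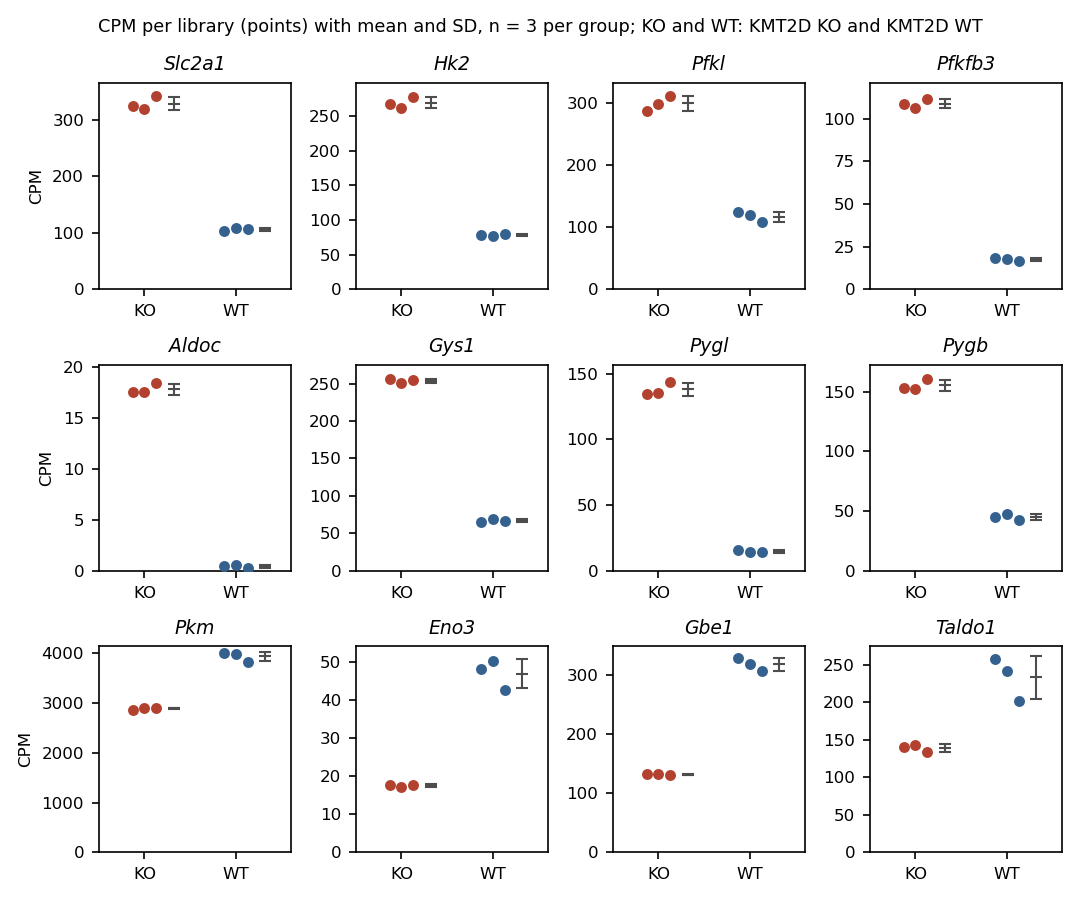
CPM in each library (points) for 12 of the genes, each panel with its own linear axis from 0, KMT2D KO in red on the left and KMT2D WT in blue on the right, with the mean and SD beside them (n = 3). The first 8 panels show genes with all KMT2D KO libraries above all KMT2D WT libraries, as in Pygl at 135 to 144 against 14.2 to 16.0 CPM, and Pkm, Eno3, Gbe1 and Taldo1 show the opposite order.

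In the later steps of glycolysis, in which ATP and NADH are made, 5 of 7 genes were called higher (35.4% of all tested genes), and Eno3 and Pkm were called lower (35.5% of all tested genes). The 5 include Eno1, whose counts do not give its level, and Eno2, whose call was lost against the median of its chromosome (adjusted p = 0.32). Gapdh, the NADH-forming dehydrogenase, was at 1728, 1759 and 1596 CPM in KMT2D KO, against 531, 653 and 581 CPM in KMT2D WT. It rose 2.88-fold without overlap (log2 fold change 1.53 ± 0.07, adjusted p = 4.6e-11). Gapdh RNA is often used as a loading control. Pgk1, phosphoglycerate kinase, was at 344, 372 and 352 CPM in KMT2D KO and 246, 240 and 203 CPM in KMT2D WT. Pgam1, phosphoglycerate mutase, was at 165, 173 and 165 CPM in KMT2D KO and 95.6, 99.1 and 90.2 CPM in KMT2D WT. Both rose without overlap, with log2 fold changes of 0.63 and 0.82. These 3 genes share much sequence with copies: 58.4% of the 50-base stretches of Gapdh, 68.0% of those of Pgk1 and 41.5% of those of Pgam1 also occur in other annotated genes. Multi-mapping fragments are by default not counted, so the levels of these genes are uncertain, and to a lesser degree those of Gpi1 (19.0% shared) and Pkm (18.4%).

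Enolase, which forms phosphoenolpyruvate, could be followed through Eno2 and Eno3 but not through the general gene Eno1. In the deposited annotation 92.8% of the exon bases of Eno1 (1649 of 1776) are also assigned to Eno1b, and a fragment assigned to more than 1 gene is by default dropped. Eno1 was counted at 1.42, 1.56 and 1.30 CPM in KMT2D KO, against 0.650, 0.646 and 0.246 CPM in KMT2D WT. The test called it higher (1.44 ± 0.38, adjusted p = 0.0032), but these counts rest on the 127 bases left and do not give the level of the gene. Eno1b itself was at 49.1 ± 2.02 CPM in KMT2D KO and 47.7 ± 5.85 CPM in KMT2D WT. It was not called (adjusted p = 0.65, edgeR). Of its 3411 exon bases, the 1649 on chromosome 4 are those shared with Eno1, and the other 1762 lie on chromosome 18. Its counts therefore do not give the level of the general enolase either, and do not show that this level was unchanged. Eno2, the neuronal enolase, was at 49.3, 47.1 and 48.3 CPM in KMT2D KO and 36.8, 41.1 and 36.2 CPM in KMT2D WT, a small rise (0.34, adjusted p = 0.00037) that was no larger than the median of its chromosome. Eno3, the muscle enolase (chr11:70470678-70476015, + strand, mm9), was at 17.8, 17.1 and 17.7 CPM in KMT2D KO, against 48.1, 50.1 and 42.7 CPM in KMT2D WT. It showed the deepest fall of the 34 genes (-1.42 ± 0.08, adjusted p = 3.6e-10). The summed level of 7 skeletal muscle markers was 2.23 to 2.58 CPM in KMT2D KO and 2.86 to 3.73 CPM in KMT2D WT. Ckm, Myh1, Myh4, Myog and Pvalb were under 1 CPM in both. Acta1 was called lower (-1.15, adjusted p = 0.0083, edgeR), at 0.587 CPM in KMT2D KO and 1.32 CPM in KMT2D WT. Ryr1 was not called, at 1.04 CPM in KMT2D KO and 1.07 CPM in KMT2D WT.

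Pkm, pyruvate kinase, catalyses the last step of glycolysis and makes ATP. It was at 2872, 2904 and 2903 CPM in KMT2D KO, against 4006, 3980 and 3834 CPM in KMT2D WT. Of the 10 glycolytic steps summed over isozymes, with enolase left out, it was the only one lower in KMT2D KO without overlap. Its log2 fold change was -0.45 ± 0.05 (adjusted p = 4.5e-07, edgeR). The median of its chromosome was -0.30, and the fall was still called against it, at -0.15. Whole-gene counts do not separate the M1 and M2 splice forms. Pklr, the liver and red cell gene, had almost no counts, at 0.000347% of pyruvate kinase per length in KMT2D KO and 0.000125% in KMT2D WT.

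Summed per step, the level per length was higher in all 3 KMT2D KO libraries than in all 3 KMT2D WT libraries for 9 of the 10 steps and lower for pyruvate kinase, with enolase left out. Taken as single genes, 37.2% of all tested genes stood above in this way and 37.1% below. The counted enolase sum, which lacks the fragments shared by Eno1 and Eno1b, was also lower without overlap. It was 29.0 ± 0.577 RPKM in KMT2D KO and 43.2 ± 3.32 RPKM in KMT2D WT. The ratio of the group means was 3.04 for glucose transport, 2.88 for Gapdh, 2.79 for Tpi1 and 2.15 for aldolase. It was 1.82 for the isomerase, 1.81 for hexokinase, 1.77 for phosphoglycerate mutase, 1.63 for phosphofructokinase and 1.55 for phosphoglycerate kinase, and 0.734 for pyruvate kinase. The levels of the most abundant genes per length are given next as counted; Eno1 is left out, and an unknown part of the fragments of genes with copies (58.4% of 50-base stretches shared in Gapdh, 19.0% in Gpi1, 18.4% in Pkm, 8.46% in Aldoa and 6.83% in Tpi1) was not counted, so the order of genes is uncertain. In KMT2D KO, Gapdh at 1132 ± 58.0 RPKM, Aldoa at 1118 ± 19.2 RPKM and Pkm at 1113 ± 7.08 RPKM had counted levels within their spread between replicates. In KMT2D WT, the counted level of Pkm was 1516 ± 35.7 RPKM, beside Aldoa at 524 ± 23.3 RPKM and Gapdh at 393 ± 41.0 RPKM. Tpi1 at 754 ± 23.9 RPKM in KMT2D KO and 271 ± 17.9 RPKM in KMT2D WT, and Gpi1 at 431 ± 6.82 RPKM in KMT2D KO and 237 ± 8.57 RPKM in KMT2D WT, were lower than these in each group.

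**Figure D3:**
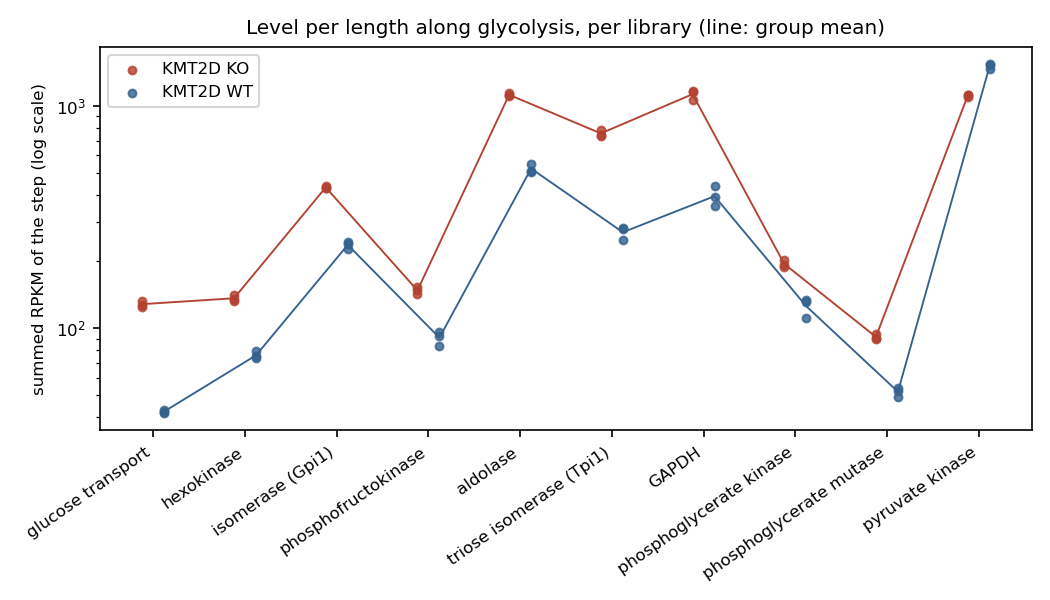
Level per gene length (RPKM, log axis) of 10 steps of glycolysis in pathway order, summed over the isozyme genes among the 34, with 1 point per library and a line through the group means, KMT2D KO in red and KMT2D WT in blue. The red points lie above the blue ones at 9 steps and below them at pyruvate kinase, where the means were 1113 in KMT2D KO and 1516 in KMT2D WT. Taken as single genes, 37.2% of all tested genes stood above without overlap and 37.1% below. Enolase is not shown.

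The pentose phosphate genes had log2 fold changes between -0.75 and 0.45. In the oxidative branch, which makes NADPH, the first enzyme gene G6pdx was at 302, 295 and 297 CPM in KMT2D KO and 236, 247 and 263 CPM in KMT2D WT. Pgls, the lactonase, was at 42.7, 44.3 and 39.0 CPM in KMT2D KO and 31.6, 35.4 and 25.1 CPM in KMT2D WT. Both rose (0.26 ± 0.05, adjusted p = 0.00045, and 0.45 ± 0.10, adjusted p = 0.0012), and neither call held against the median of its chromosome (adjusted p = 0.22 and 0.053). Pgd, the second NADPH-forming enzyme, was at 225, 231 and 225 CPM in KMT2D KO and 202, 220 and 210 CPM in KMT2D WT. Its libraries did not overlap, yet the difference of 0.11 was not called (adjusted p = 0.078).

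In the non-oxidative branch, which trades carbon between pentoses and glycolytic sugars, 1 gene was called lower. Taldo1, transaldolase (chr7:148578059-148588875, + strand, mm9), was at 140, 144 and 134 CPM in KMT2D KO, against 257, 242 and 202 CPM in KMT2D WT. It fell without overlap (-0.75 ± 0.08, adjusted p = 4.3e-07, edgeR) although its chromosome had a median of 0.15. Of the 50-base stretches of Taldo1, 10.7% also occur in another annotated gene, so its level is less certain. Transketolase, Tkt, its partner in the branch, was at 335, 351 and 350 CPM in KMT2D KO and 322, 329 and 286 CPM in KMT2D WT. The difference was called (0.15 ± 0.06, adjusted p = 0.037), but not without KMT2D KO replicate 2 (adjusted p = 0.086), KMT2D KO replicate 3 (0.078) or KMT2D WT replicate 3 (0.10). Rpia, the ribose isomerase, was at 7.45, 8.93 and 7.84 CPM in KMT2D KO and 8.52, 8.10 and 6.50 CPM in KMT2D WT. Rpe, the epimerase, was at 47.7, 45.8 and 43.8 CPM in KMT2D KO and 54.7, 47.6 and 49.1 CPM in KMT2D WT. Both pairs of groups overlapped and neither gene was called (log2 fold changes 0.06 and -0.14, adjusted p = 0.68 and 0.079). Against the median of chromosome 6, Rpia was lower (-0.36, adjusted p = 0.026). Of the exon bases of Rpe, 21.4% are shared with the opposite-strand gene Kansl1l, and strand was not used in counting.

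Glycogen genes held some of the largest differences, with the synthase and both phosphorylase genes higher in KMT2D KO and the branching enzyme gene lower. Gys1, the muscle and general glycogen synthase (chr7:52690209-52711987, + strand, mm9), was at 256, 251 and 255 CPM in KMT2D KO, against 65.3, 69.8 and 66.5 CPM in KMT2D WT. It rose 3.78-fold with very tight groups (log2 fold change 1.92 ± 0.05, adjusted p = 1.3e-13). Gbe1, the branching enzyme that adds the side chains (chr16:70314194-70569965, + strand, mm9), was at 133, 132 and 130 CPM in KMT2D KO, against 329, 319 and 306 CPM in KMT2D WT. Its direction was opposite to that of Gys1, with a log2 fold change of -1.27 ± 0.05 (adjusted p = 1.0e-11), and -0.83 relative to the median of its chromosome.

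Glycogen phosphorylase releases glucose 1-phosphate from the polymer. Pygl, the liver form (chr12:71291802-71328670, - strand, mm9), was at 135, 135 and 144 CPM in KMT2D KO, against 16.0, 14.4 and 14.2 CPM in KMT2D WT. It rose 9.29-fold, the second largest rise of the 34 genes (3.22 ± 0.07, adjusted p = 6.9e-15). Pygb, the brain form, was at 153, 152 and 161 CPM in KMT2D KO, against 45.2, 47.4 and 42.2 CPM in KMT2D WT, a rise of 3.46-fold (1.79 ± 0.06). Pygl made up 54.5% ± 0.22 of phosphorylase RNA per gene length in KMT2D KO and 30.7% ± 1.7 in KMT2D WT. By this measure the liver form led in KMT2D KO and the brain form in KMT2D WT. Without division by length, Pygb led in both groups, in KMT2D KO at 155 CPM beside 138 CPM for Pygl. The family's summed level was 89.8 ± 3.06 RPKM in KMT2D KO and 17.2 ± 0.901 RPKM in KMT2D WT.

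Phosphoglucomutase links glycogen with glycolysis by converting glucose 1-phosphate and glucose 6-phosphate. The symbols of the 2 genes listed here under that name have been exchanged since the files' annotation. The files' Pgm1, on chromosome 5, is Pgm2 in current RefSeq, and the files' Pgm2, on chromosome 4, is the current Pgm1. By the files' names, Pgm2 was at 173, 181 and 171 CPM in KMT2D KO, against 79.6, 78.3 and 69.1 CPM in KMT2D WT, and rose 2.31-fold (1.21 ± 0.06). Pgm1 was at 35.2, 31.6 and 33.1 CPM in KMT2D KO, against 37.8, 41.6 and 40.9 CPM in KMT2D WT. Pgm1 was lower without overlap (-0.27, adjusted p = 0.0035), by less than the median of its chromosome, against which the difference was 0.09 (adjusted p = 0.27). The files' Pgm2 made up 83.0% ± 1.1 of this pair per length in KMT2D KO and 63.7% ± 2.6 in KMT2D WT.

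**Figure D4:**
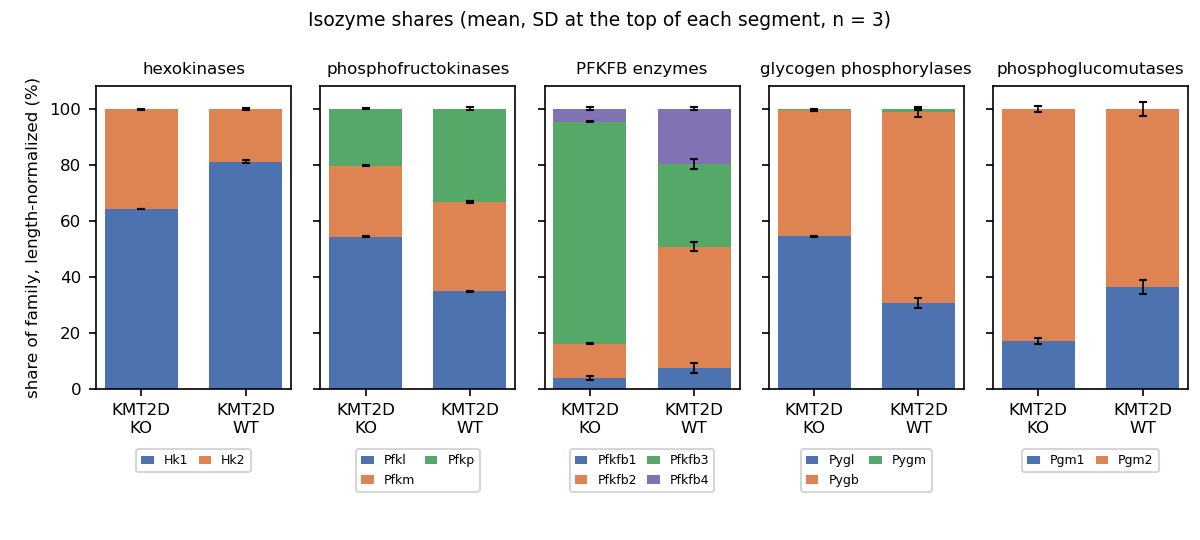
Share of each isozyme gene in its family per gene length (percent, stacked, genes over 1% in either group), for 5 families, with KMT2D KO left of KMT2D WT and the SD over 3 libraries at the top of each segment. The bar for Pfkfb3 fills 79.2% of its family in KMT2D KO and 29.6% in KMT2D WT, and the bar for Pygl 54.5% in KMT2D KO and 30.7% in KMT2D WT.

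A further 71 genes of these pathways, such as other isozymes, regulators of glycogen and glucose-sensing factors, were read from the same fit. Of these, 58 passed the filter, and 23 (39.7%) were higher, 15 (25.9%) lower and 20 not called, with a median log2 fold change of 0.20. The share called higher was near the 35.4% of all tested genes. The transporter gene Slc2a4, the insulin-responsive GLUT4, was at 2.07, 1.87 and 2.07 CPM in KMT2D KO, against 0.120, 0.210 and 0.201 CPM in KMT2D WT (log2 fold change 3.49). Epm2a, which encodes the glycogen phosphatase laforin, was at 4.05, 4.56 and 5.53 CPM in KMT2D KO and averaged 0.611 CPM in KMT2D WT, none of whose libraries passed 0.975 CPM (2.91). Both were low genes with no overlap between the groups. Ppp1r3d, a subunit that brings protein phosphatase 1 to glycogen, averaged 7.22 CPM in KMT2D KO and 1.28 CPM in KMT2D WT (2.48). Pgm5, a phosphoglucomutase relative without clear enzyme activity that sits at adherens junctions, averaged 24.9 CPM in KMT2D KO and 3.90 CPM in KMT2D WT (2.67).

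Among the 15 that fell, Pgm2l1, a glucose 1,6-bisphosphate synthase, was at 2.92, 2.41 and 3.42 CPM in KMT2D KO, against 23.8, 23.6 and 28.5 CPM in KMT2D WT (-3.12). Pgm3, an enzyme of hexosamine synthesis, and Bpgm, which makes 2,3-bisphosphoglycerate, fell by less (-0.78 and -0.67). Phkg1, the muscle catalytic subunit of phosphorylase kinase, averaged 0.386 CPM in KMT2D KO and 1.01 CPM in KMT2D WT (-1.37, adjusted p = 0.0091), and was not called without KMT2D WT replicate 2 (adjusted p = 0.054). Of the 21 tested glycogen genes in this wider list, 11 (52.4%) were higher and 5 (23.8%) lower, beside 35.4% and 35.5% of all tested genes. Chosen after their values were seen, the phosphatase 1 subunit genes Ppp1r3b (1.75) and Ppp1r3c (2.16) were higher as well. The phosphorylase kinase subunit gene Phkb (1.18), chosen likewise, was also higher. The synthase kinase gene Gsk3b, chosen in the same way, was lower (-0.56). Against the median of chromosome 16 (-0.44), Gsk3b was not called (-0.11, adjusted p = 0.15, edgeR). Gsk3a, the related kinase gene of the list, was called lower (-0.29). Among the remaining subunit genes of phosphatase 1 and phosphorylase kinase, Ppp1r3g (2.13, at 0.557 CPM in KMT2D KO) and Phka2 (0.40) were also higher. Phka1 was lower (-0.31), and Ppp1r3e, Ppp1r3f and Phkg2 were not called. Hif1a, which encodes the oxygen-regulated subunit of HIF-1 and was likewise chosen after its values were seen, was at 842, 813 and 850 CPM in KMT2D KO, against 352, 344 and 373 CPM in KMT2D WT (log2 fold change 1.23, adjusted p = 1.5e-11). HIF-1 is controlled mainly through the stability of that protein, which was not measured. Of the 6 tested glucose-sensing genes of this list, 3 (50%) were higher, Hif1a among them, beside 35.4% of all tested genes. The other 3 were not called. Myc, 1 of these, averaged 81.2 CPM in KMT2D KO and 77.2 CPM in KMT2D WT (log2 fold change 0.07, adjusted p = 0.39, edgeR). No count was found in any library for Slc2a2, the liver form of glucose transporter, and Pck1, the cytosolic enzyme of gluconeogenesis, which allows up to 0.0391 to 0.0671 CPM per library.

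The libraries of each group were close to one another in these genes. The coefficient of variation had a median of 3.18% in KMT2D KO, from 0.636% for Pkm to 15.4% for Slc2a3, and of 6.32% in KMT2D WT, from 1.58% for Hk2 to 45.2% for Eno1. KMT2D WT replicate 3, the library with the fewest counts, was the lowest of its group in 22 of the 34 genes. Without it, 21 of the genes were called higher and 7 lower, Tkt being the call lost.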

How the data were processed

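RNA sequencing libraries of cultured mouse cells, 3 labelled KMT2D KO and 3 KMT2D WT, were analysed. The authors deposited whole-number counts of read pairs per gene, and the file headers record featureCounts 1.5.2, exon features, mm9 genes and no strand setting; the command sets no option for multi-mapping fragments or fragments overlapping several genes. STAR and HTSeq are named in the submitters' processing notes without role or version. The files also hold another value, the gene length, which gave RPKM (CPM per kilobase).

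Counts were tested with edgeR 4.0.16 (R 4.3.3; TMM, default low-count filter by group, group-only quasi-likelihood fit, Benjamini-Hochberg over 14579 genes). CPM used TMM-scaled library sizes, and the SE is the log2 fold change over the square root of F. The test was tried on simulated counts in which few genes changed, equally up and down. In these data 10345 of 14579 genes were called, so the simulation cannot show that the scaling and calls hold here. Alternatives were RLE, unscaled library size, DESeq2 1.42.0, limma voom 3.58.1, other filters, a replicate block, a fold threshold, chromosome centring, counts not divided by length, and leaving out each library. Some genes of the wider lists are not reported here. The genes and lists were chosen with earlier results of these data known. Genes given per library were all of a role with up to 3 members, and otherwise at least the largest rise, the largest fall and the most abundant per length; of the wider list, up to 4 called genes each way with at least 1 CPM in the higher group were named. Replicates differed by more than counting noise (chi-square per degree of freedom 11.4 to 25.6). Near-identical copies were sought as shared 50-base stretches in GRCm38.p6 transcripts, and promoters came from RefSeq on that build. A floor of 3 counts covers counting error only.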

Additional observations from a re-analysis of the deposited data

How the results depend on the processing

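Of the 34 genes, 24 kept their direction and their side of the threshold under all 14 alternatives that refit the data, Eno1 in the 13 whose filter it passed. The number called higher lay between 20 and 23 and the number called lower was 7 or 8; in the wider list these were 20 to 25 and 12 to 19. Requiring an absolute log2 fold change above 1 left 13 higher and 2 lower among the 34, and 12 higher and 4 lower among the wider list. The median log2 fold change of the 34 was 0.37 with library size unscaled, which itself moved the median of all genes by -0.11 and called Rpe lower and Tkt no longer. It was 0.51 without a low-count filter, 0.43 at a mean of at least 1 CPM, and 0.44 to 0.53 with single libraries left out. Without Eno1, Gapdh, Pgk1 and Pgam1, an alternative chosen after seeing the data, it was 0.36, with 18 called higher and 7 lower. Centring on the chromosome median turned the direction of Pfkp to 0.53, Eno2 to -0.0788, Rpia to -0.36, Pgm1 to 0.0902 and Pgd, not called in either fit, to -0.0276. Same-numbered libraries of the groups correlated at 0.00645, 0.0675 and 0.0473 after removal of group means, and differently numbered ones at -0.0794 to 0.0353. With 3 libraries per group, these values cannot decide whether the numbers pair the libraries. When the replicate number was used as a block, the median was 0.49, and 22 were higher and 7 lower, with no call changed among the 34. The cause of these shifts was not tested. Counting error is largest for genes at a few CPM or less, such as Slc2a3, Eno1 and, in KMT2D WT, Aldoc.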
